A study of Mus musculus with 12 samples.

Results

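The proteasome genes of adult mouse cortex were followed across 3 Tet1 genotypes. Members were taken by symbol: every row whose name begins with Psm, a letter from a to g and a number. There were 50 such genes among 21769 rows of the count table, none of them a pseudogene row and none listed on more than 1 row. By role they were 8 genes of the 20S alpha ring, 7 of the 20S beta ring, 4 inducible beta subunits, 9 of the 19S base, 8 of the 19S lid, 7 assembly chaperones, and 5 genes that hold 4 activator subunits and 1 inhibitor. The remaining 2, Psmc3ip and Psme2b, match the name but are no proteasome subunits. Psmc3ip encodes a cofactor of meiotic recombination that was named for binding Psmc3, and Psme2b is a near copy of Psme2, so reads of Psme2 and Psme2b could be split between them.

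The 26S proteasome is the cell's main protease for proteins tagged with ubiquitin. Its 20S core is a barrel of stacked alpha and beta rings whose beta subunits Psmb5, Psmb6 and Psmb7 cut proteins. The 19S cap recognises ubiquitin, removes it and feeds the unfolded protein into the barrel through a ring of Psmc ATPases. In immune cells and after interferon, Psmb8, Psmb9 and Psmb10 take the place of the 3 catalytic subunits, and neurons depend on proteasomes for protein turnover at synapses. The subunits are made for complexes of fixed composition, and the transcription factor Nfe2l1 raises their genes together when proteasome activity is short.

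Poly(A) RNA of whole adult cortex was sequenced in 4 libraries each of KO, HxD and WT mice. KO and HxD are 2 genotypes of Tet1, whose enzyme oxidises methylated cytosine in DNA, and the study is about what TET1 does with and without its catalytic activity. HxD is also the name of the iron-binding motif of TET enzymes. The labels give no allele, age beyond adult, sex or pooling. Whether each library is a separate animal is not stated either, so a p-value here covers the variation among libraries, part of which may be technical.

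The libraries held between 5791642 and 9535409 estimated counts in KO, between 7767787 and 10347432 in HxD and between 8310783 and 10915574 in WT. The targeted gene does not check the labels: Tet1 was listed at 0 in all KO and all WT libraries, and at 1, 0, 63 and 67 counts in HxD 1 to 4. Gapdh, a glycolysis gene active in all cells, also stood at 0 in each of the 12 libraries, so a listed 0 is not read as silence. Excitatory cortical neuron markers were all detected (6 of 6 tested) and summed to 2402 to 2900.2 CPM (counts scaled to library size) in KO, 2441 to 3537 in HxD and 2828 to 3975 in WT. Summed CPM of the other marker lists overlapped between genotypes for oligodendrocytes (3279 to 3863 in KO, 1423 to 4234 in HxD and 2002 to 4797 in WT) and striatal neurons (269 to 408 in KO, 232 to 1082 in HxD and 359 to 636 in WT), all 7 markers of each tested. Astrocyte markers (6 of 6 tested) summed to 1881 to 2048 in KO, 1451 to 2099 in HxD and 1579 to 1889 in WT. Endothelial markers (2 of 4 tested, Pecam1 listed at 0) summed to 51.7 to 80.3 in KO, 74.1 to 120 in HxD and 81.5 to 127 in WT, so that KO lay below WT. The part of cell make-up in the results was not tested. Of 11693 genes that passed the filter on low counts, 45 were members. In bulk tissue, fewer cells of a type and less RNA per cell cannot be told apart.

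The stretches of DNA in front of 2 catalytic core genes are shown because they hold the letters through which Nfe2l1 is known to act, the antioxidant response element TGACNNNGC, searched on both strands. The sequences are RefSeq promoters of build GRCm38.p6, running from 250 bases before to 50 bases after the gene start, 5′ to 3′ on the gene's strand, with the matching letters in capitals. Psmb5 lies on the minus strand at chr14:54617946-54618245 and Psmb6 on the plus strand at chr11:70525107-70525406.
Psmb5: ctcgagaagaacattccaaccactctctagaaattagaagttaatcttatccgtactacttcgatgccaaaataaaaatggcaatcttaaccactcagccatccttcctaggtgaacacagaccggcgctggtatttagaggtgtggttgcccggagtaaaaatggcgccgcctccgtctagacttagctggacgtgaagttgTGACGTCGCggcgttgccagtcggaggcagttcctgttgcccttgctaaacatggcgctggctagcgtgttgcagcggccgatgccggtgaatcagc
Psmb6: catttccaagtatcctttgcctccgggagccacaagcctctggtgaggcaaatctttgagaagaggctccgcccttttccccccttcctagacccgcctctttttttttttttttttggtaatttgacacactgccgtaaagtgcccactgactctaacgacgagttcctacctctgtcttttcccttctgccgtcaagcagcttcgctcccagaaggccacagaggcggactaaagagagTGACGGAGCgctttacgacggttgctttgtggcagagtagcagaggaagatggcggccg
Promoters were at hand for 42 members. The catalytic subunit Psmb7 was not among them and could not be searched. Of the 42, 6 (14.3%) held the element: Psmb5, Psmb6, the 19S ATPase Psmc6, the lid subunit Psmd12, the assembly chaperone Psmd9 and the activator Psme4. Of all 27025 genes with such a promoter, 14.0% held it, so the letters were as common in front of proteasome genes as elsewhere. The 6 members had a median log2 fold change of 0.09 in KO and 0.11 in HxD against WT, and the 33 tested members whose promoter lacked the letters had 0.08 in both.

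Per length of transcript, the core genes had the highest median levels, the cap genes came next, and the assembly chaperones and activators lay below both. Levels per kb use the principal transcript in GENCODE, which 42 of the 45 tested members had. Psmd4, Psmd8 and Psmd10 lacked one and are left out of these levels. In WT the cap genes Psmd4 and Psmd8 averaged 8.48 and 3.10 CPM, against 101 (Psmd11) to 273 (Psmd2) for the other tested cap genes. In WT, beta ring genes had a median of 136 CPM per kb, alpha ring genes 107, lid genes 76.5 and base genes 73.8. Assembly chaperones, which build the complex but leave it, had a median of 15.8, and the activators and inhibitor 10.9. The highest per kb in WT were Psmb4 at 171 ± 6.48, Psmb6 at 165 ± 10.04, the ATPase Psmc1 at 154 ± 11 and Psma7 at 153 ± 13.4 CPM per kb (SD, n = 4), where neighbours in this order differed by less than the sum of their SDs. Psmb7 at 150.1 ± 8.08 and Psmb5 at 136 ± 12.8 followed. Psma3, at 13.4 ± 5.15 CPM per kb, stood lowest of the 2 rings, on a principal transcript of 2846 bases that is longer than those of most other core genes. Among partners, the nuclear activator Psme3 stood at 62 ± 3.78, close to cap genes, and the activators Psme4 and Psme2 at 10.9 ± 1.83 and 5.48 ± 1.34. The order of these 6 role groups by median was the same in KO and HxD except that the lid and base groups changed places in HxD.

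**Figure D1:**
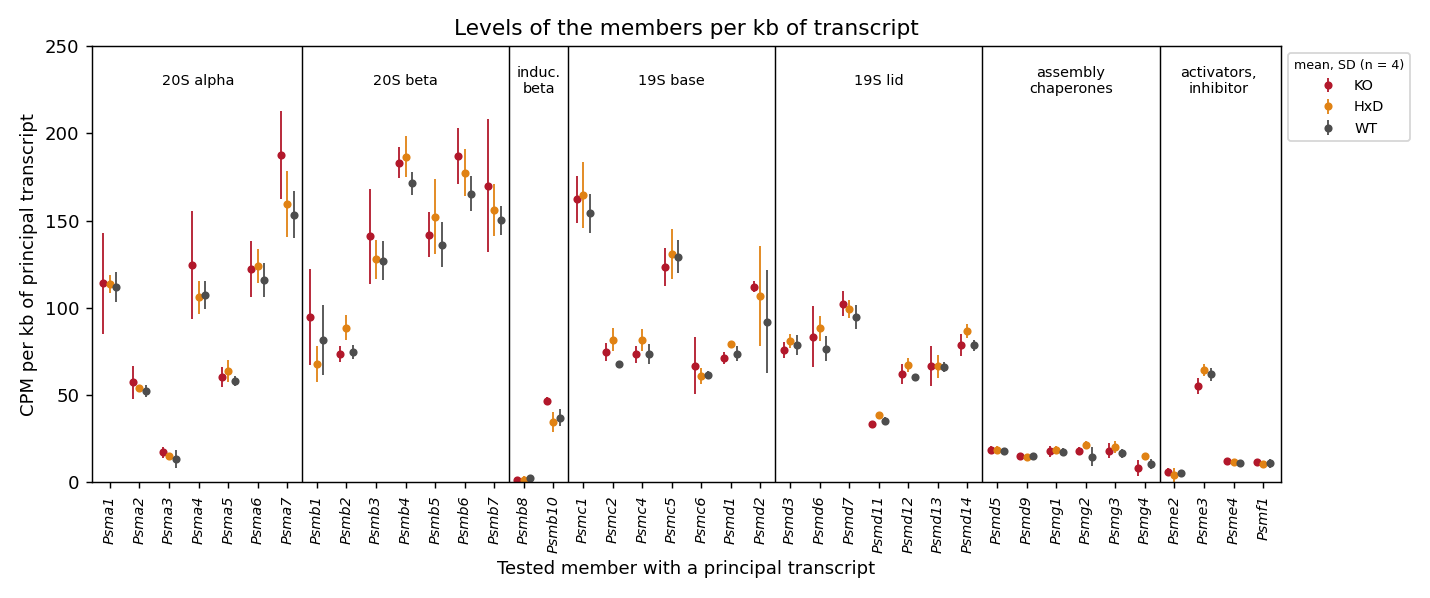
Mean level of each tested subunit or partner in CPM per kb of principal transcript (vertical axis, bars are SD over 4 libraries) by role, for KO, HxD and WT. The 20S and 19S genes shown reach up to 188 CPM per kb (Psma7 in KO), Psma3 and Psmd11 lie below the rest of them, and Psmb8, the chaperones and most activators lie near the bottom. Psmd4, Psmd8 and Psmd10 had no principal transcript and are not shown.

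Of the 50 members, 5 could not be followed at all. Psme1, a subunit of the interferon-inducible 11S activator, was listed at 0 in all 12 libraries, and so was Psma8, the alpha subunit of male germ cells. Psme1 overlaps Emc9 in RefSeq, and Emc9 held 186 to 374 counts per library. Psmc3ip overlaps Mlx, Psmd10 Atg4a, Psme4 Erlec1 and Psmf1 Tmem74b, and as no strand setting for counting is given in the sources used here, the levels of these members are uncertain. Psmc3, one of the 6 obligate ATPases of the cap, held 0 to 8 counts per library, while the other 5 ATPases held 589 to 2726. Psmb11, the thymus subunit, held 0 to 8, and the immunoproteasome subunit Psmb9 held 0, 4, 11 and 3 in KO 1 to 4, 2, 7, 14 and 7 in HxD 1 to 4, and 6, 0, 5 and 0 in WT 1 to 4. Every 26S proteasome holds Psmc3, so a count near 0 is not read here as absence from the tissue, and no fold is given for these 5 genes.

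Another 4 members, all of them tested, were uneven between libraries of the same genotype. Psmd8, a lid subunit, held 313, 7, 153 and 227 counts in KO 1 to 4, 4, 11, 7 and 90 in HxD 1 to 4, and 6, 69, 25 and 21 in WT 1 to 4. KO 1, KO 3 and KO 4 lay above every other library, and KO 2 lay among them. Psmd4, the ubiquitin receptor of the cap, held 127, 78, 170 and 117 counts in KO, 94, 77, 31 and 36 in HxD, and 19, 27, 100 and 170 in WT. Its KO libraries, at 10.4 to 21.8 CPM, lay above the HxD libraries, at 3.51 to 10.1 CPM, and overlapped those of WT, at 2.17 to 17 CPM. As with Psmc3, the low counts of Psmd8 and Psmd4 are not read as their level in the tissue. Psmb8, the inducible counterpart of Psmb5, was listed at 0 in KO 1, KO 2, HxD 2 and HxD 4 and held 24 to 52 counts in the other 8 libraries, all 4 WT libraries among them. Psme2, the partner of Psme1, held 1 to 81 counts per HxD library and 21 to 56 in KO and WT. The spread of log2(CPM + 0.5) within a genotype was 0.96 to 1.72 for these 4 genes, against a median of 0.18 over the 45 tested members and 0.34 over all genes tested. Among genes with a mean of at least 50 CPM the median was 0.19 over all 4020 and 0.14 over the 31 members. Psmd2, at 0.38, was uneven in HxD and WT but not in KO. The steadiest member was Psmd1, the scaffold of the base, at 0.06.

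**Figure D2:**
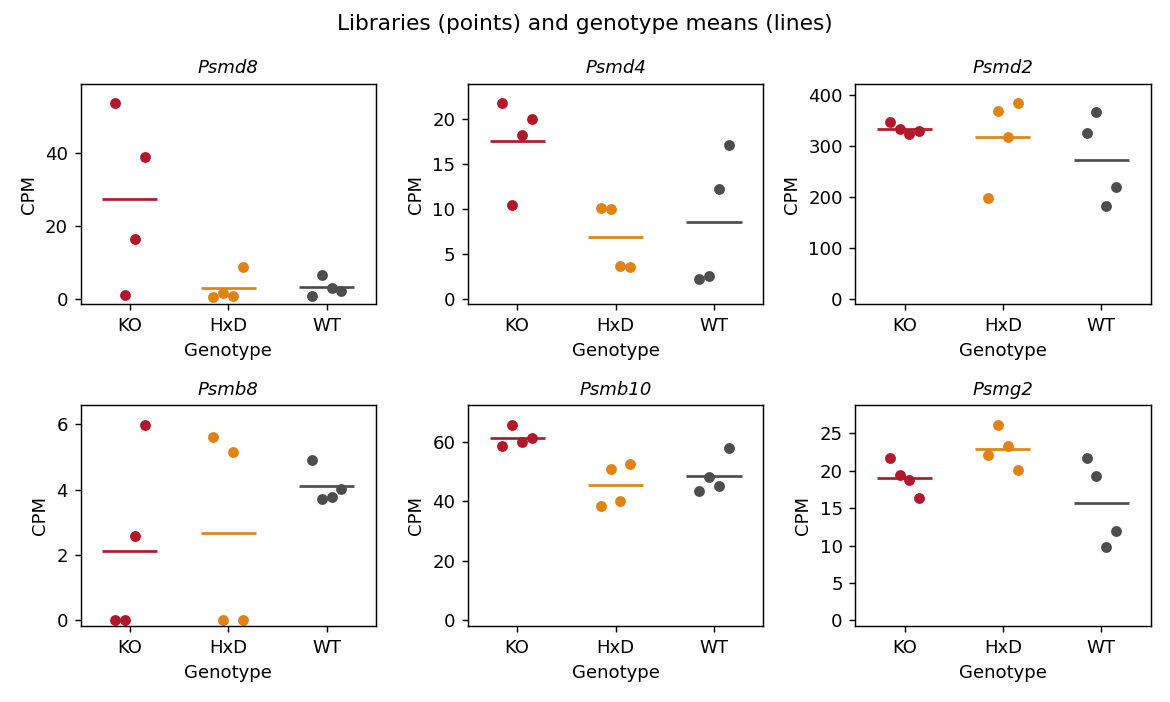
CPM of 6 members by library (points) with genotype means (lines), KO, HxD and WT from left to right. Psmd8 and Psmd4 are spread within each genotype. Psmd2 is spread in HxD and WT but lies at 324 to 345 CPM in KO. Psmb8 is spread in KO and HxD but lies at 3.71 to 4.91 CPM in WT. Psmb10 is higher in all 4 KO libraries than in any HxD or WT library.

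Between HxD and WT, no proteasome gene passed the test: edgeR's quasi-likelihood test called 0 of 45 at an adjusted p below 0.05, against 0.898% of all genes tested. Small differences ran mostly one way. The fitted fold change was above WT for 34 of 45 members, against 51.3% of all genes, and the median log2 fold change was 0.08, against 0.01 over all genes. By role, 6 of 7 alpha ring genes lay above WT (median 0.06), 6 of 7 beta ring genes (0.10), 6 of 8 base genes (0.10), 7 of 8 lid genes (0.09) and 6 of 7 assembly chaperones (0.23). Both tested inducible subunits lay below WT.

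The leading member was Psmc2, an ATPase of the cap, with 142, 162, 147 and 134 CPM in HxD 1 to 4, against 118, 122, 123 and 122 CPM in WT 1 to 4. Every HxD library lay above every WT library, with a log2 fold change of 0.27 ± 0.07 (SE, edgeR adjusted p = 0.3). The DESeq2 Wald test called it (adjusted p = 0.0107), the only member it called, against 1.48% of all genes, and limma-voom called 0 members, against 0.693% of all genes. Psmb2, a structural subunit of the beta ring, stood at 84.3, 75.4, 75.6 and 69.1 CPM in HxD 1 to 4, against 64.7, 60, 63.7 and 68.4 CPM in WT 1 to 4, again without overlap (0.25 ± 0.08, edgeR adjusted p = 0.705). The chaperone Psmg2, which pairs with Psmg1 to start the alpha ring, stood at 22.1, 26.1, 23.3 and 20.1 CPM in HxD and at 21.7, 19.3, 9.84 and 11.9 CPM in WT. Its groups overlapped, and WT 3 and WT 4 were the low ones (0.54 ± 0.24, edgeR adjusted p = 0.999). Psmd12 of the lid stood at 123, 138, 121 and 130.2 CPM in HxD, against 112, 116, 115 and 116 CPM in WT (0.16 ± 0.08), and the lid deubiquitinase Psmd14 at 132, 141, 126 and 135 CPM in HxD, against 119, 116, 126 and 124 CPM in WT (0.14 ± 0.07), both with an edgeR adjusted p of 0.999. HxD libraries lay wholly above WT for 4 members, Psmc2, Psmb2, Psmd12 and the chaperone Psmg4 (8.89%, against 1.76% of all genes), and wholly below for 0 (1.72% of all genes). At an unadjusted p below 0.05 there were 3 members, Psmc2, Psmb2 and Psmg2 (6.67%, against 4.05% of all genes).

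The catalytic subunits differed little between HxD and WT. Psmb5 averaged 137 ± 19.3 CPM in HxD and 122 ± 11.5 CPM in WT (SD, n = 4), a log2 fold change of 0.16 ± 0.11 (SE). Psmb6 averaged 142 ± 10.8 CPM in HxD and 132 ± 8.01 CPM in WT (0.10 ± 0.08), and Psmb7 181 ± 17.2 CPM in HxD and 174 ± 9.38 CPM in WT (0.06 ± 0.14). These differences were within the spread between libraries, with edgeR adjusted p-values of 0.999. Without HxD 2 they were 0.072 for Psmb5, 0.064 for Psmb6 and 0.0018 for Psmb7. The data bound most members closely: the 95% interval of the fold change lay within 1.5-fold either way for 32 of 45 members, against 40.2% of all genes. The share of all genes, here and in the other comparisons, is not matched for level. The 13 others were Psma3, Psmb1, Psmb8, Psmd2, Psmd4, Psmd8, Psmd10, Psmg2, Psmg3, Psmg4, Psme2, Psme2b and Psmc3ip.

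**Figure D3:**
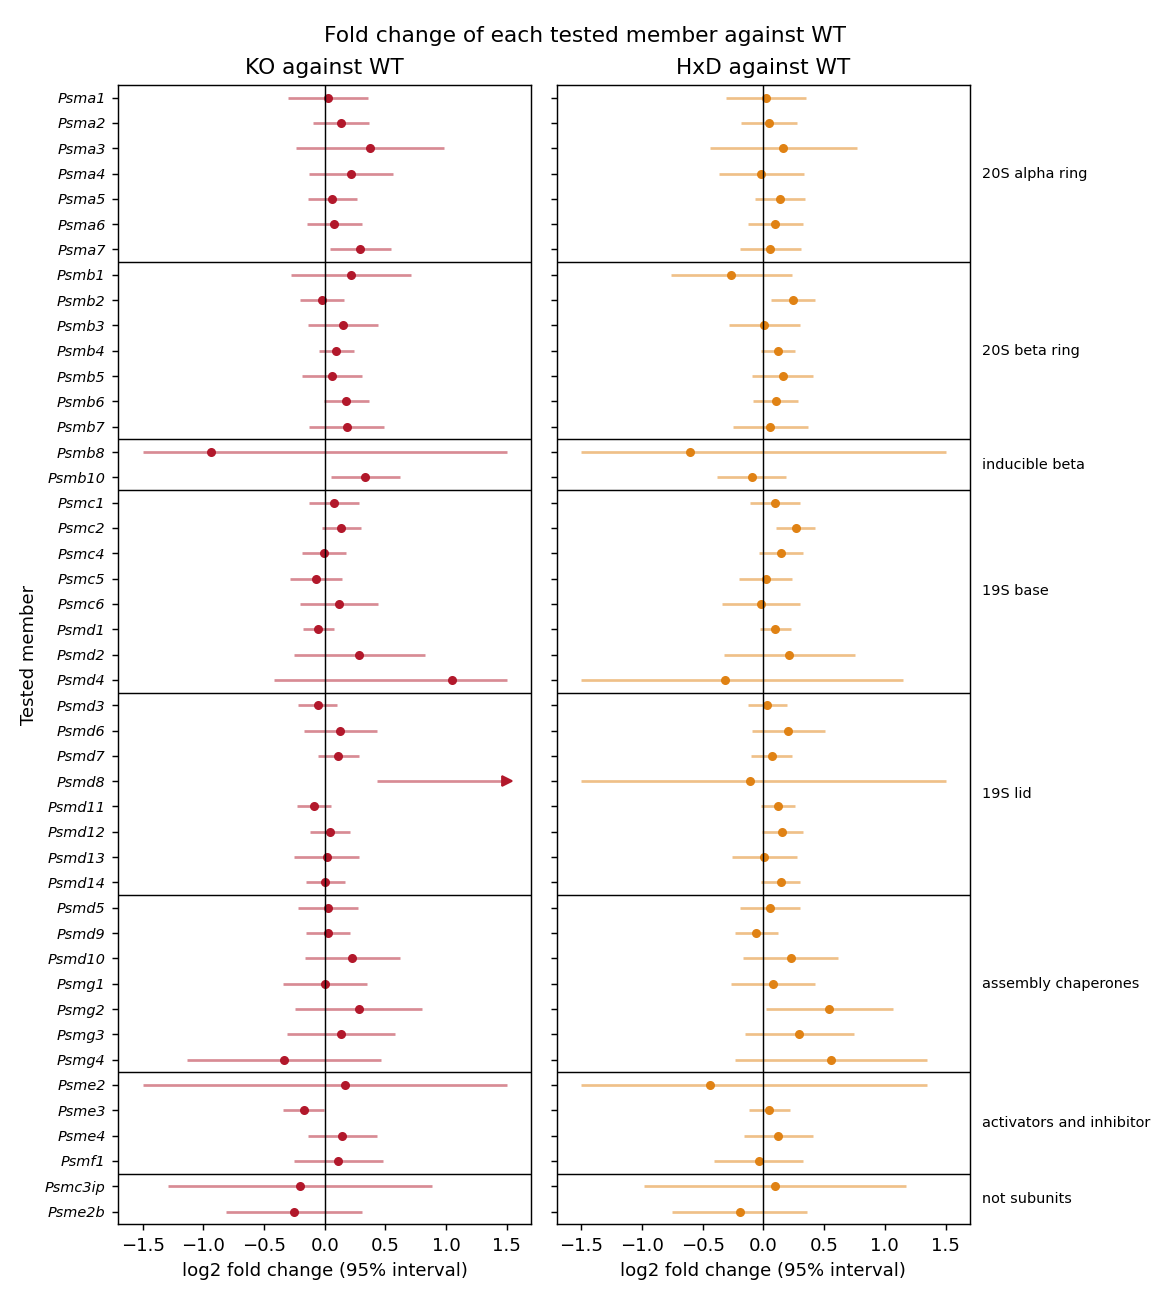
Log2 fold change of each of the 45 tested members with its 95% interval, KO against WT on the left and HxD against WT on the right, grouped by role. Points lie right of 0 for 34 of 45 members in each panel, most intervals cross 0, and Psmd8 in KO (arrow, 3.13) and intervals past 1.5 are cut at the edge.

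KO against WT also gave 0 of 45 members at an adjusted p below 0.05, where edgeR called 0.154% of all genes. The DESeq2 Wald test also called 0 members, against 2.48% of all genes, and limma-voom called 0 members and 0% of all genes, so its count says nothing about the members. The fitted fold change was above WT for 34 of 45 (50.9% of all genes), with a median log2 fold change of 0.10 against 0.01 over all genes. All 7 alpha ring genes lay above WT (median 0.13), 6 of 7 beta ring genes (0.15), 5 of 8 base genes (0.10), 6 of 8 lid genes (0.03) and 6 of 7 chaperones (0.03). KO and HxD were set against the same WT libraries, so their fold changes share that error. Of the 45 members, 25 lay above WT in both mutants, 2 below in both and 18 on different sides. With 34 of 45 above WT in each comparison, most would lie above in both even if the comparisons were unrelated. The count is therefore not read as agreement, and the matching share over all genes was not computed.

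Psmb10, the inducible counterpart of Psmb7, led the list. It stood at 58.4, 65.6, 59.8 and 61.2 CPM in KO 1 to 4, against 43.5, 48, 45 and 57.8 CPM in WT 1 to 4, without overlap (log2 fold change 0.33 ± 0.13, edgeR adjusted p = 0.439). With the length trend removed its log2 fold change was 0.23. Leaving out WT 1 gave 0.27, and leaving out WT 4 gave 0.42. Psma7 of the alpha ring stood at 155, 205, 169 and 157 CPM in KO, against 131, 132, 141 and 157 CPM in WT, where WT 4 lay above KO 1 (0.29 ± 0.11, edgeR adjusted p = 0.446). Psmd8, with the values above, had a log2 fold change of 3.13 ± 1.22 and an edgeR adjusted p of 0.447. Psme3, the nuclear activator, was the lowest of this group at 160.3, 133, 140.1 and 153 CPM in KO, against 157, 178, 168 and 158 CPM in WT (-0.17 ± 0.08, edgeR adjusted p = 0.512). At an unadjusted p below 0.05 there were these 4 members (8.89%, against 9.48% of all genes), a share near the background. KO libraries lay wholly above WT for Psmb10 and Psmc2 (4.44%, against 3.25% of all genes) and wholly below for 0 members (3.95% of all genes).

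Of the catalytic subunits, Psmb6 stood at 142, 162, 158 and 135 CPM in KO 1 to 4, against 131, 121, 139 and 137 CPM in WT 1 to 4 (0.18 ± 0.08, edgeR adjusted p = 0.544). Psmb5 averaged 128 ± 11.7 CPM in KO and 122 ± 11.5 CPM in WT (0.06 ± 0.11), and Psmb7 averaged 197 ± 44.1 CPM in KO and 174 ± 9.38 CPM in WT (0.18 ± 0.14), with edgeR adjusted p-values of 0.935 and 0.761. The wide SD of Psmb7 in KO came with KO 2, which stood at 255 CPM against 153 to 206 in the other KO libraries. Without KO 2 the log2 fold change of Psmb7 was 0.026, and with the length trend removed that of Psmb6 was 0.046. Intervals within 1.5-fold either way were found for 32 of 45 members, against 35.9% of all genes.

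The median in KO was lower without KO 2 or KO 3. KO 2 was the highest of the 12 libraries for 17 of the 45 members, HxD 2 for 11, and KO 3 and HxD 4 for 4 each. Without KO 2 the median log2 fold change against WT was 0.02, without KO 3 it was 0.06 and without WT 1 it was 0.05. KO 2, KO 3 and HxD 2 had the steepest fall of values with transcript length: the slope of log2 CPM per doubling of length was -0.10 in KO 2 and KO 3 and -0.12 in HxD 2, against -0.02 to 0.10 in the other 9 libraries. With the length trend taken out of each library, 23 of 45 members lay above WT in KO, with a median of 0.02. In HxD, 32 of 45 lay above WT and the median was 0.07 in that fit, while without WT 1 it was 0.05. Any part of length beyond these values was not tested.

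**Figure D4:**
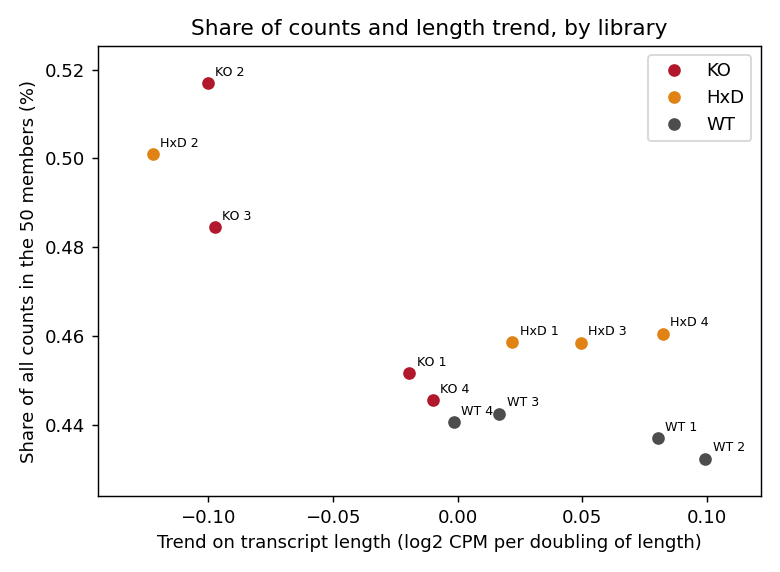
Share of each library's counts held by the 50 members (vertical axis, percent) against the library's trend of log2 CPM on transcript length (horizontal axis). KO 2, HxD 2 and KO 3 combine the highest shares, 0.517%, 0.501% and 0.485%, with the most negative trends, and the WT libraries lie lowest, with KO 4 close above them by counts of Psmd8.

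As a share of all counts in a library, the 50 members took 0.452%, 0.517%, 0.485% and 0.445% in KO 1 to 4, 0.459%, 0.501%, 0.458% and 0.46% in HxD 1 to 4, and 0.437%, 0.432%, 0.442% and 0.441% in WT 1 to 4. Each KO and HxD library lay above the highest WT library by this sum, but for KO that order rests on the uneven Psmd8: without it KO 4 held 0.4416%, against 0.4421% in WT 3, and KO overlapped WT, while HxD did not. Summed CPM of the tested 20S and 19S genes were 3876 to 4612 in KO, 3961 to 4504 in HxD and 3849 to 3950.0 in WT, where KO and WT overlapped. Without Psmd2, Psmd4 and Psmd8 they were 3489 to 4269 in KO, 3640.0 to 4125 in HxD and 3522 to 3754 in WT, and both mutants overlapped WT. Of the genes left out Psmd2 held the most, at 324 to 345 CPM in KO, 197 to 383 in HxD and 181 to 367 in WT. Weighting each member alike gives a less clear picture: the median over the tested members of log2(CPM + 0.5), centred on each gene's mean, was -0.08 to 0.10 in KO, -0.04 to 0.14 in HxD and -0.10 to 0.01 in WT, and the genotypes overlapped.

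**Figure D5:**
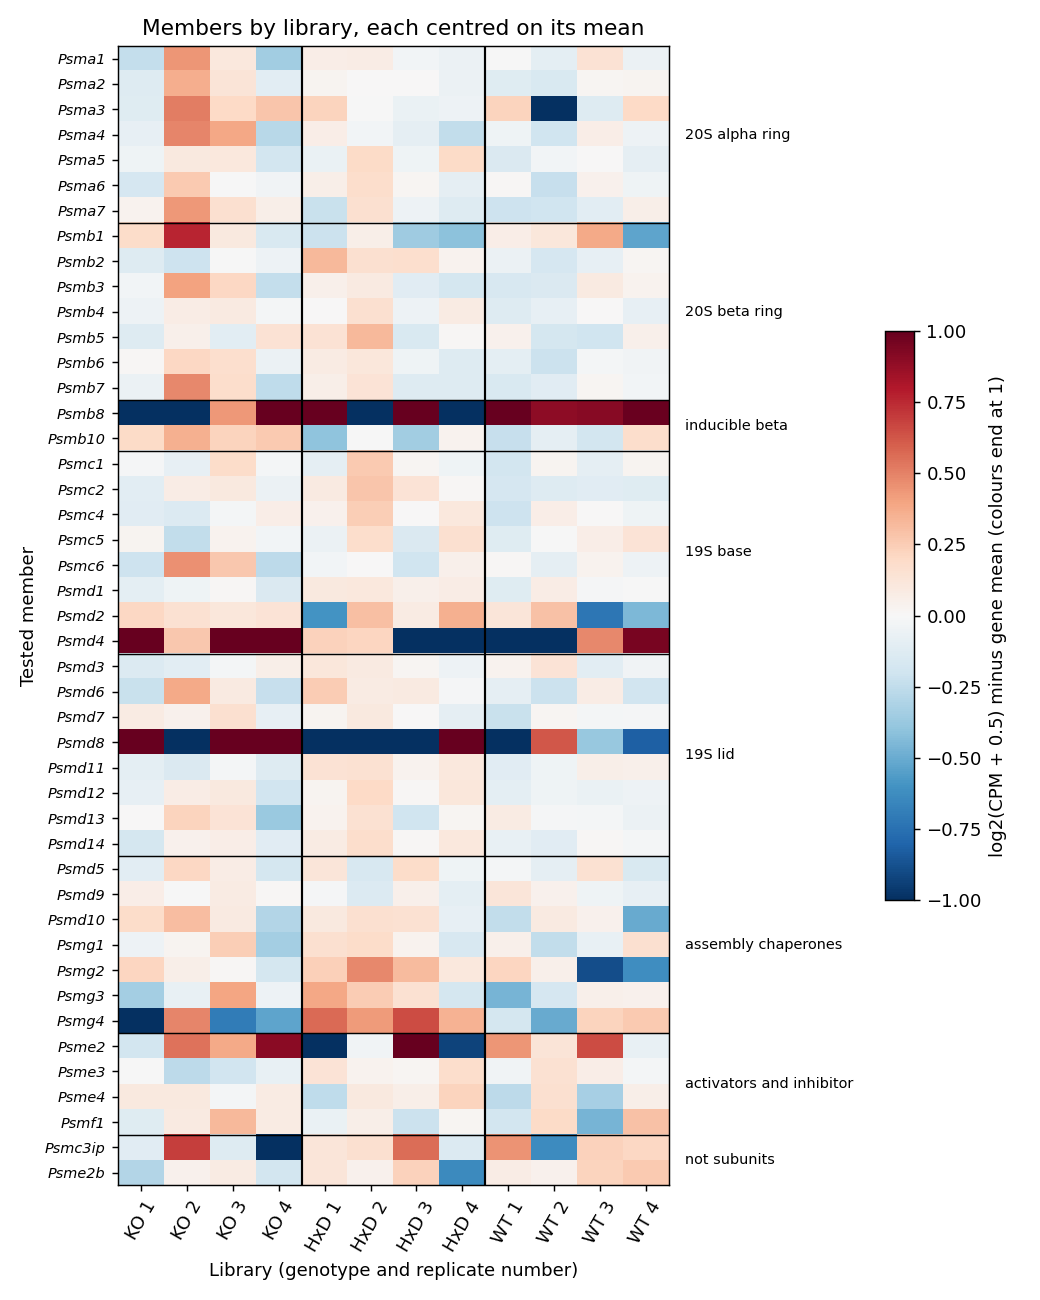
Level of the 45 tested members in each library as log2(CPM + 0.5) minus the gene's mean over all libraries, KO, HxD and WT from left to right, rows grouped by role. KO 2 is red over most of both rings, HxD 2 is red over the base and lid, and Psmb8, Psmd4 and Psmd8 reach the ends of the scale in both directions.

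Set directly against HxD, KO showed no proteasome gene past the threshold either: edgeR called 0 of 45, against 1.02% of all genes. Here the fold changes split, with 21 above (50.2% of all genes) and 24 below HxD and a median of -0.02. The split was less even with the length trend removed, where 16 of 45 lay above HxD and the median was -0.10. The alpha and beta rings had medians of 0.08 each, the base -0.06, the lid -0.09 and the chaperones -0.08. Psmb10 was again high in KO, at 58.4 to 65.6 CPM, against 38.4, 51, 39.9 and 52.4 CPM in HxD 1 to 4 (log2 fold change 0.43 ± 0.13, edgeR adjusted p = 0.24). Psmb2 stood at 61.5, 58.3, 67.4 and 65.1 CPM in KO 1 to 4, below the 69.1 to 84.3 CPM of HxD (-0.27 ± 0.08, edgeR adjusted p = 0.248). Psmd11, a scaffold of the lid, stood at 94.7, 91.7, 100 and 92.8 CPM in KO, against 112, 112, 104 and 109 CPM in HxD, without overlap (-0.21 ± 0.06, edgeR adjusted p = 0.251).

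Psme3 was lower than in every HxD library, at 133 to 160.3 CPM in KO and 162 to 181 CPM in HxD (-0.22 ± 0.08, edgeR adjusted p = 0.307). Psmd8 had 3.24 ± 1.23 (edgeR adjusted p = 0.351) on overlapping libraries. KO libraries lay wholly below HxD for Psmb2, Psmd1, Psmd11 and Psme3 (8.89%, against 3.62% of all genes) and wholly above for Psmb10 and Psmd4 (4.44%, against 3.97%). At an unadjusted p below 0.05 there were 7 members (15.6%, against 11.6% of all genes), these 5, Psmd1 and the chaperone Psmg4. The DESeq2 Wald test called Psmb2, Psmd1 and Psmd11 lower in KO (adjusted p = 0.0401, 0.046 and 0.0202), against 3.55% of all genes called, and limma-voom called 0 members, against 0.718% of all genes. Psmb5, Psmb6 and Psmb7 had log2 fold changes of -0.10 ± 0.11, 0.08 ± 0.08 and 0.12 ± 0.14 in KO against HxD, within the spread between libraries (edgeR adjusted p = 0.807, 0.795 and 0.805). Intervals within 1.5-fold either way were found for 32 of 45 members, against 34.6% of all genes.

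The inducible subunits showed no common direction. Psmb10, at 61.2 ± 3.12 CPM in KO, 45.4 ± 7.26 in HxD and 48.6 ± 6.47 in WT (SD, n = 4), was the only one of the 4 with more than 52 counts in any library. Psmb8 had log2 fold changes of -0.94 ± 1.59 in KO and -0.61 ± 1.57 in HxD against WT and of -0.33 ± 1.59 in KO against HxD, with edgeR adjusted p-values of 0.927, 0.999 and 0.968. The size of these values is not settled: against WT, limma-voom gave -2.81 in KO and -2.92 in HxD, the fit with a replicate block -1.90 and -1.45, and leaving out 1 library -2.21 to -0.53 in KO and -1.25 to -0.19 in HxD. Psmb10 differed between HxD and WT by -0.10 ± 0.13 (edgeR adjusted p = 0.999). Markers of microglia, the immune cells of the cortex, summed to 371 to 456 CPM in KO, 385 to 482 in HxD and 404 to 467 in WT (6 of 7 tested, Csf1r listed at 0 in all libraries), with overlapping ranges. Beside Psmb10, the interferon and MHC class I genes had 11 tested members of 15. In KO against HxD, 10 of the 11 lay above HxD with a median log2 fold change of 0.36, where 50.2% of all genes lay above. In KO against WT 8 lay above with a median of 0.21 (50.9% of all genes), and in HxD against WT 3 lay above and 8 below with a median of -0.10 (51.3% of all genes above). EdgeR called 0 of them in each comparison, against 1.02%, 0.154% and 0.898% of all genes. Single genes in KO against WT ran between H2-D1, a heavy chain of MHC class I, at a log2 fold change of -0.60 ± 1.26, and Tapbp, which helps load peptides onto MHC class I, at 1.32 ± 0.46 (edgeR adjusted p = 0.944 and 0.393). Tapbp held 43, 239, 187 and 108 counts in KO 1 to 4, against 76, 88, 76 and 48 in WT 1 to 4, so that the groups overlapped.

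Other genes of the pathway, the interferon and MHC class I genes included, followed no common direction against WT. Of 43 in the table, 36 were tested, and edgeR called 0 in each of the 3 comparisons. Against WT, 19 of the 36 lay above in KO (median log2 fold change 0.07, 50.9% of all genes above) and 17 in HxD (-0.02, 51.3%). In KO against HxD, 23 of the 36 lay above and 13 below, with a median of 0.13, against 50.2% of all genes above. Of these 23, 10 were interferon and MHC class I genes. At an unadjusted p below 0.05, KO against WT gave 2 higher and 2 lower, HxD against WT 0, and KO against HxD 2 higher and 3 lower. These are 11.1%, 0% and 13.9% of the 36, against 9.48%, 4.05% and 11.6% of all genes. The ubiquitin gene Ubb averaged 2173 ± 118 CPM in HxD and 1982 ± 65.8 CPM in WT, with a log2 fold change of 0.13 ± 0.06 (edgeR adjusted p = 0.999). Nfe2l1 itself averaged 572 ± 90.5 CPM in KO, 504 ± 168 in HxD and 626 ± 75.1 in WT, with log2 fold changes of -0.13 ± 0.24 in KO and -0.31 ± 0.24 in HxD against WT (edgeR adjusted p = 0.934 and 0.999), and HxD 2 was its lowest library at 1958 counts. Over the 5 tested genes of transcription control the medians were -0.13 in KO and -0.08 in HxD, with 2 above and 3 below WT in each. Nfe2l2 was among those above, at 26.3 ± 4.24 CPM in KO and 20.4 ± 2.03 CPM in WT (0.37 ± 0.14, edgeR adjusted p = 0.448).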

How the data were processed

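RNA of adult mouse cortex was measured in 12 libraries, grouped by the genotype in the labels. RNA was column-purified and selected on oligo d(T) beads, per the labels' protocols. Per the submitters' processing notes, which give no roles, STAR 2.7.1a, StringTie 2.2.3, SAMtools 1.9, Trim Galore 0.6.7 and FastQC were used, with builds GRCm39 and mm10. The step from reads to genes, and any strand setting, is not given in the sources used here. Estimated counts were deposited by the authors, whole and not normalized, by gene symbol. They are called estimated here since housekeeping genes such as Gapdh stand at 0. There were 25 symbols on several rows (56 rows), which were left out.

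CPM were computed here per summed count of the tested genes times the TMM factor. Genes were tested in R 4.3.3 with edgeR 4.0.16 (quasi-likelihood F test, robust fit, filterByExpr at a minimum count of 10) over all 12 libraries with genotype as the only term, two-sided, Benjamini-Hochberg adjusted over 11693 genes, at a threshold of 0.05. SE is the absolute log2 fold change over the square root of F, and intervals use it with the test's degrees of freedom. Without molecular identifiers reads may share a molecule, so depth bears on counting error alone. Lengths are GENCODE vM21 transcripts: the longest per symbol for trends (99.8% of tested genes), the APPRIS principal one for levels per kb. Promoters and overlaps come from RefSeq tables of GRCm38.p6, in which all 50 members were found.

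Fold changes are given for called members, the 5 with the smallest p per comparison and the catalytic and inducible subunits, and of other pathway genes for called ones or the 2 with the smallest p, of which not every one is reported here. Further ones (Tapbp, H2-D1, Nfe2l1, Nfe2l2) were chosen after their values were seen. Members and lists were chosen with earlier results of these data known. Alternatives were DESeq2 1.42.0 size factors and Wald test, limma 3.58.1 voom, library size only, 2 other filters, a fit to just the 8 libraries of a comparison, a block for the replicate number, the length trend removed by offsets, a threshold of 0.1 and each library left out. Leaving out HxD 2, KO 2 and KO 3 together, and Psmd8 from the share of counts, was added after the data were seen. The omission of Psmd2, Psmd4 and Psmd8 from the summed CPM was not planned either. The scripts were tested on simulated data.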

Additional observations from a re-analysis of the deposited data

Results flagged for a closer look

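Of 48 groups of 4 libraries looked at, 2 held a library set apart from the other 3 by more than Dixon's 95% limit, where chance sets apart about 1 in 20. Psmd8 stood at 8.78 CPM in HxD 4, against 0.431 to 1.43 CPM in the other HxD libraries. Its KO and WT libraries were also uneven, but none of them was flagged by this limit. The share of counts held by the 50 members was 0.501% in HxD 2, against 0.458% to 0.46% in the other HxD libraries. HxD 2 was also the HxD library whose values fell with transcript length.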

How the results depend on the processing

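The count of members called stayed at 0 in every comparison under all planned and added alternatives except the DESeq2 Wald test, which called 1 member in HxD against WT (Psmc2) and 3 in KO against HxD (Psmb2, Psmd1 and Psmd11). With each library left out in turn the count was 0 throughout, and the median log2 fold change of the members ranged from 0.05 to 0.11 in HxD against WT, from 0.02 to 0.12 in KO against WT and from -0.07 to 0.03 in KO against HxD. With HxD 2, KO 2 and KO 3 left out together, the median in KO against WT was -0.046, and with the length trend removed that in KO against HxD was -0.10. Signs that changed were all of small or uneven differences. In KO against WT, Psmb5 had -0.072 without the length trend and -0.0091 without KO 4, and Psmb7 had -0.088 without the 3 libraries. In KO against HxD, Psmb6 had -0.050 without the length trend, Psmb7 -0.090 without the 3 libraries and -0.025 (without KO 2) to 0.21 with 1 library left out, Psmb5 0.0067 without the 3 libraries, and Psmb8 0.11 by limma-voom and -1.60 to 0.30 with 1 library left out, above 0 without HxD 1, HxD 3, KO 1 or KO 2. Beyond what the length fit and the omitted libraries show by construction, the cause was not tested. With the replicate number as a block, 0 members were called in each comparison, with medians of 0.07 in HxD against WT, 0.10 in KO against WT and -0.02 in KO against HxD. The numbers do not pair the samples: correlations of same-numbered libraries' deviations were -0.07 to 0.07, and 4 of 12 libraries correlated best with their own number. The lowest KO share of counts minus the highest WT one was 0.00304 percentage points, and -0.000581 without Psmd8. Psma8, Psmb8, Psmb9, Psmb11, Psmc3, Psmc3ip, Psme1, Psme2, Psme2b and Psmg4 held under 100 counts in every library, which widens their counting error. Psmb8 held 0 counts in KO 1 (5853428 in all), KO 2 (7484805), HxD 2 (7767787) and HxD 4 (10347432), and 35 in KO 4 (5791642). The part of depth in these values was not tested.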
